A study of Mus musculus with 47 samples.

Results

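Adult medullary thymic epithelial cells (mTECs) with high MHC class II, called mTEChi, were compared between mice deficient in Aire (AireKO) and wild-type mice (WT), to ask which tissue programmes fell and which rose over all genes. The 11 libraries were chosen by title, 4 of mTEChi from AireKO and 7 of mTEChi from WT, out of 47 libraries in the study. In addition, 12 adult mTEClo libraries (8 WT and 4 AireKO), with low MHC class II, were used. They entered the filter, the scaling and a shared estimate of the spread. They also entered the checks on the kind of library described below. All mice were C57BL/6. For mTEChi, AireKO mice were males aged 5 weeks (replicates 1 and 2) or 6 weeks (replicates 3 and 4). WT mice were aged 4 weeks (replicates 1 and 2) or 5 weeks (replicates 3 to 7). WT replicates 4 and 5 came from females. The mTEClo libraries came from WT mice of both sexes aged 4 or 5 weeks, and from AireKO males aged as for mTEChi. The AireKO deficiency is in the whole body. Cells were gated as negative for DAPI, CD45 and Ly51, positive for EpCAM and high for MHC class II, and lysed in bulk. The labels do not tie a library to 1 animal, so p-values measure the spread between these libraries only. The epithelial genes that define the gate were present in every library. The summed level of the 6 epithelial markers, in CPM (counts relative to the library total, scaled by the trimmed mean of M values, TMM), was 1407 to 1865 in WT and 1374 to 1563 in AireKO, and 0 of the 6 were called. Epcam had 216 to 310 CPM in WT and 236, 221, 200 and 234 in AireKO.

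Aire is a nuclear protein of mature mTECs, through which these cells transcribe genes that are otherwise restricted to peripheral tissues. Products of such genes are shown to developing T cells, which are deleted or diverted to a regulatory fate when they recognise them too well. Part of the mTEC compartment also takes on programmes of other epithelia, such as tuft, ciliated or microfold cells, through the transcription factors of those lineages, and is then called mimetic.

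The WT mTEChi libraries held 1602125 to 3231079 counts and the AireKO libraries 2528049 to 3106026. When every library was thinned to 1593686 counts, 27850 to 28723 genes were seen in WT and 23281 to 24072 in AireKO. All 4 AireKO libraries had 0 counts of the 37 mitochondrially encoded genes, against 8184 to 9521 in each WT library, and these genes were left out. Because no WT library was of this kind, within mTEChi the genotype cannot be told apart from this kind of library. Among the 156 tested genes that followed the library kind over all adult libraries, 82 were called lower and 61 higher. Over all tested genes 17.9% were called lower and 5.48% higher. The 156 genes were picked by a split that sets all mTEChi AireKO against all mTEChi WT libraries, so these calls follow largely from the choice. The 156 genes included Med10, at 64.6 to 89.8 CPM in WT and 0 in all AireKO libraries. They also included Brms1, at 0 to 0.714 CPM in WT and 46.5 to 54.7 in AireKO. Libraries also lay in closer sets, WT 1 and 2, WT 3 to 5, WT 6 and 7, AireKO 1 and 2, and AireKO 3 and 4. Within these sets counts differed by 1.23 to 1.92 times the sampling noise (chi-square per degree of freedom), against 2.86 to 6.39 between sets. Summing each set before the fit kept 93.5% of the genes called lower and 95.3% of those called higher.

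Aire itself (ENSMUSG00000000731, GRCm38 chromosome 10, 78030022 to 78043610, minus strand) had 758 CPM in the lowest, 825 in the median and 921 in the highest WT library, and 38.9, 39.1, 21.4 and 17.1 CPM in the 4 AireKO libraries. The groups did not overlap, with a log2 fold change of −4.83 (SE 0.38, adjusted p 3.15e-11). This and every other adjusted p came from the quasi-likelihood test of edgeR, adjusted by Benjamini-Hochberg over all tested genes. With a term for the library kind its log2 fold change was 0.13. That term rests on the mTEClo AireKO libraries, aged 5 weeks with mitochondrial counts and 6 weeks without them. In it, library kind cannot be told apart from age.

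Falls of at least 2-fold were more frequent than such rises in AireKO, and more of them were large. Of 19301 tested genes, 3460 were called lower (17.9% of all tested) and 1057 higher (5.48%) when an adjusted p below 0.05 and a fitted 2-fold change were both required. Among the genes called lower, 1940 fell at least 4-fold, 1218 at least 8-fold and 776 at least 16-fold on the fitted scale. Among those called higher the numbers were 114, 30 and 10. The CPM of the groups did not overlap for 81.1% of the genes called lower and 87.2% of those called higher, and over all tested genes 20.1% were lower and 17.6% higher without overlap. In 278 genes called lower, all 4 AireKO libraries held 0 counts. For such genes a fold is given as a lower bound, against 3 counts over the 4 AireKO libraries together, or 0.297 CPM, a limit that covers counting error only. The median log2 fold change was −2.25 over genes called lower, −2.23 with those genes at their bound, and 1.27 over genes called higher. Over all tested genes the median was −0.03. With no minimum change the numbers were closer, 5605 lower and 4982 higher. Scaling by library size alone moved that median to −0.18 and gave 3897 genes lower and 705 higher.

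**Figure D1:**
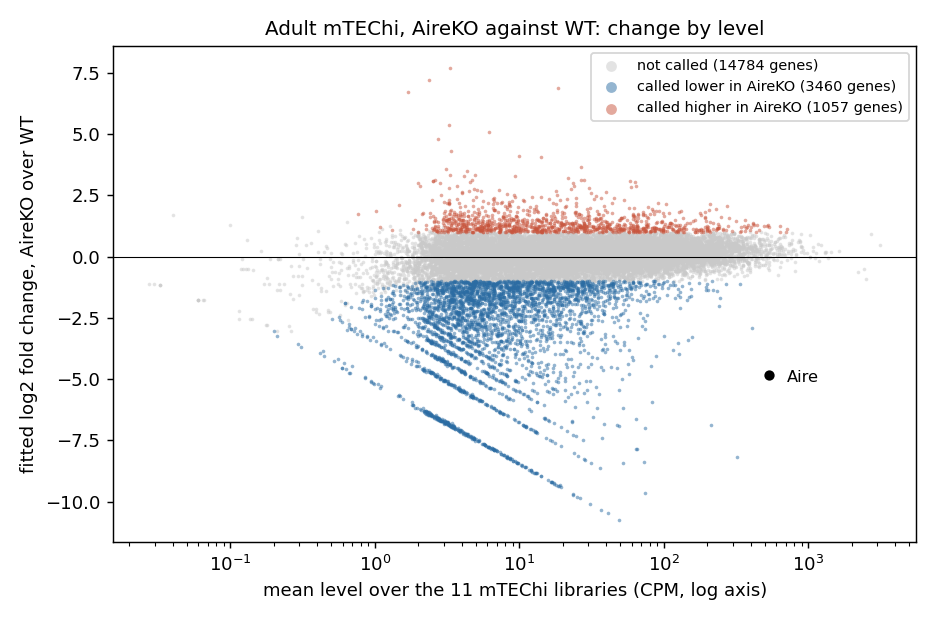
Each point is 1 of the 19301 tested genes, with its mean level over the 11 mTEChi libraries (CPM, log axis) and its fitted log2 fold change of AireKO over WT. Called falls (3460, blue) reach further from 0 than called rises (1057, red), Aire is marked in black, and the slanted bands below are genes with 0 or few counts in AireKO, whose fitted values depend on the prior count.

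The falls lay mostly in genes read at a low level. Of genes with a mean of 1 to 3 CPM, 39.9% were called lower, of those with 10 to 30 CPM 17.2%, and of those over 100 CPM 1.47%. The mean is over the 11 mTEChi libraries, AireKO included, so a fall itself lowers it. A gene at a low mean could pass the filter on low counts through WT or mTEClo libraries alone. The parts of both in this gradient were not tested. The share called higher stayed between 3.37% and 7.21% in the bins from 1 CPM up. Genes called lower took 6.18% to 6.81% of all counts in WT libraries and 1.36% to 1.54% in AireKO, whereas genes called higher took 2.96% to 3.6% and 7.24% to 7.48%. Among protein-coding genes 19.3% were lower and 4.03% higher, among lncRNAs 12.3% and 10.6%, and among pseudogenes 10.5% and 15.7%.

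The largest falls came from unlike tissues. They were taken from 1356 genes called lower that are protein coding, had no overlap, reached a mean of 10 CPM in WT and did not follow the library kind. Muc16, a membrane mucin of wet surfaces, had 47.5, 62.6 and 92.9 CPM in the lowest, median and highest WT library and 0 in all 4 AireKO libraries, at least 211-fold lower (edgeR adjusted p 4.42e-09). Krt13, a keratin of mucosal stratified epithelium, had 40.3, 57.6 and 73.2 CPM and 0 in all 4, at least 193-fold lower (edgeR adjusted p 1.22e-09). Cyp1a2, a cytochrome P450 of liver, had 25.9, 51.8 and 65.8 CPM and 0 in all 4, at least 171-fold lower (edgeR adjusted p 2.62e-11). None of the 3 was read in any AireKO library, and every WT library held them. Muc2, the gel-forming mucin of the intestine, was the most abundant of them, at 86.7 to 141 CPM in WT and with 1 count in the 4 AireKO libraries, a ratio of 1170 with a 95% counting interval from 210 to 46100. The other members had 0 counts in all 4 AireKO libraries, and their bounds ran from at least 87.0-fold for Reg3b, an antimicrobial lectin of gut, to at least 140-fold for Myh8, a myosin of developing muscle. They were Calb2 (a calcium-binding protein of neurons), Lefty2 (a TGF-beta family ligand), Gstm3 (a glutathione transferase), Cytl1, Prss29 (a serine protease), Fgg (the gamma chain of fibrinogen), Sst (somatostatin) and Nmur2 (a neuromedin U receptor).

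**Figure D2:**
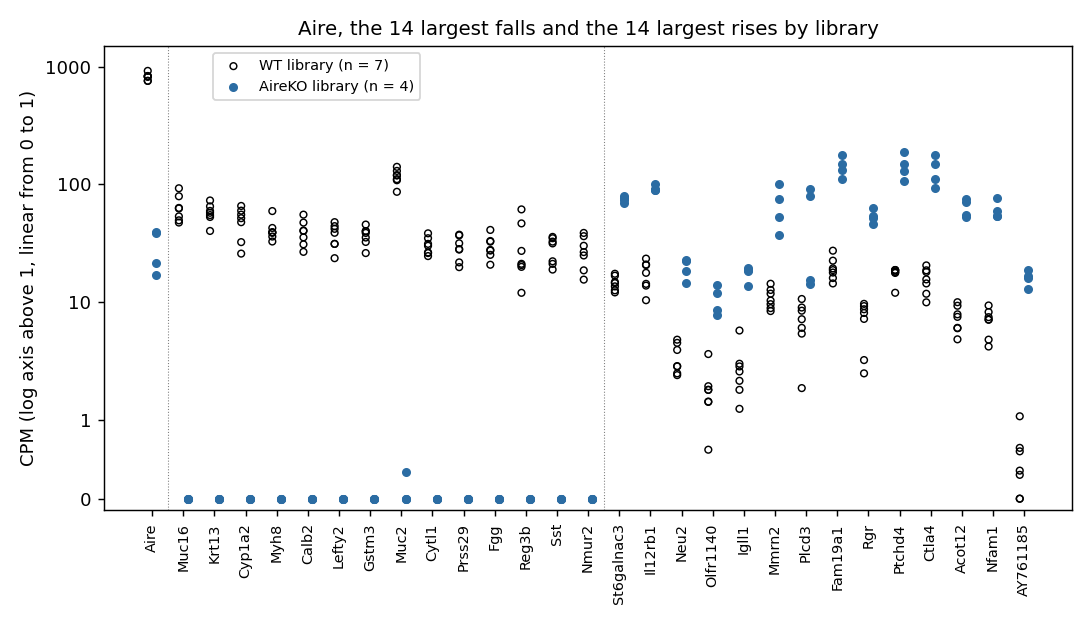
The level of Aire, of the 14 largest falls and of the 14 largest rises in every library (CPM, log axis above 1 and linear below), with WT libraries as open circles (n = 7) and AireKO libraries as filled circles (n = 4). For the falls every WT library lies at or above 12.04 CPM and the AireKO libraries lie at 0, apart from 1 library for Muc2, and for the rises all AireKO libraries lie above all WT libraries.

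The starts of 3 of these genes are shown because the letters TATAAA lay close to the start there, a feature more frequent among the genes that fell. Windows run from 250 bases before to 50 bases after the RefSeq start, 5′ to 3′ on the gene's strand, on GRCm38.p6, with TATAAA and every CG in capitals. They are Cyp1a2 (chr9:57683606-57683905, minus strand), Prss29 (chr17:25318404-25318703, plus strand) and Reg3b (chr6:78370635-78370934, plus strand), and, for contrast, Acot12 (chr13:91741271-91741570, plus strand), a gene that rose and that, with Plcd3, had the most CG of the named rises (0 to 22, median 5.0).
Cyp1a2: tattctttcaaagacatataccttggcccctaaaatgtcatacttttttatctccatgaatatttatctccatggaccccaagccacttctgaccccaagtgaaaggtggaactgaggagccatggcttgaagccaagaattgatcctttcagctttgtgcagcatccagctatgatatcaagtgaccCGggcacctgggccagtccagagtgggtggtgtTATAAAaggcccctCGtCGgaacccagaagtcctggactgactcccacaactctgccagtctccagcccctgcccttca
Prss29: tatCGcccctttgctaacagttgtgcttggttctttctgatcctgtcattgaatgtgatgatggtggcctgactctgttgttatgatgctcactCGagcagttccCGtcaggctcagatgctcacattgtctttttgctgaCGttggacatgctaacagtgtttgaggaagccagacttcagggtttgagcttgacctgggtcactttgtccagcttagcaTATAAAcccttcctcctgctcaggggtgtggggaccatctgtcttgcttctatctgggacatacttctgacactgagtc
Reg3b: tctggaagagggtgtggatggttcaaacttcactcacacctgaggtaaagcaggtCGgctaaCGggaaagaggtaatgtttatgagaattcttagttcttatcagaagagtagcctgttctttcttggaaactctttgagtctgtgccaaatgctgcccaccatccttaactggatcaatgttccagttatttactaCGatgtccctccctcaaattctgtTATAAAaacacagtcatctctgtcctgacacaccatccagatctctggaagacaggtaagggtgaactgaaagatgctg
Acot12: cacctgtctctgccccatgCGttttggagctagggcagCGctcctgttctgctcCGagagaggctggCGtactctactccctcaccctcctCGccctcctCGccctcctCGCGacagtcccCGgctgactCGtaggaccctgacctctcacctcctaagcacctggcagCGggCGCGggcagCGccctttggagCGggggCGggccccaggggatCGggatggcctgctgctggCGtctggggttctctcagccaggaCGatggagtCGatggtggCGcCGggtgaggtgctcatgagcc
In the first 3 windows TATAAA began at position −29 from the start, and the windows held 3, 4 and 3 CG, whereas that of Acot12 held 22 CG and no TATAAA. Of the named rises with a RefSeq window, AY761185 also had TATAAA near the start, at −36, with 1 CG in its window. Of the 29 genes named as Aire or largest changes, 24 had a window, and the falls and rises among them were alike, with medians of 4.5 and 5.0 CG. Over the 12211 tested protein-coding genes with a window, the median was 8 CG among 2275 genes called lower, 6 among 1302 that fell at least 4-fold, 14.5 among 456 called higher and 21 among 9480 not called. TATAAA on the gene's strand began between −45 and −15 in 5.89% of windows of genes called lower, 7.22% of those that fell at least 4-fold, 1.75% of those called higher and 1.39% of those not called. It did so in 2.36% of all 27025 windows. Genes read at a low level dominate the falls, and the part of level in these shares was not tested. A match of letters is a description of the window and not a bound site.

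Programmes of peripheral tissues fell together. The 23 lists of tissue and mimetic-cell genes held 482 genes, of which 382 were tested, and 227 of these were called lower (59.4%, against 17.9% of all tested genes) and 5 higher (1.31%, against 5.48%). Over all tested genes, the share called lower was 39.9% at a mean of 1 to 3 CPM and 1.47% over 100 CPM. The parts of level and of the filter on low counts in the share of list genes were not tested. The median log2 fold change over the 382 list genes was −1.77, and the median of each of the 23 lists lay below that of all genes. The summed CPM of the list was lower in every AireKO library than in every WT library for 16 lists, higher for 2, and overlapped for 5. With a term for the library kind, 137 of the members were lower and 17 higher. That term rests on 2 mTEClo AireKO libraries of each kind, which also differ in age. Markers of other cells, given with their values further on, moved both ways. Lower were 7 of 8 tested T lineage, 5 of 8 mesenchymal, 4 of 9 myeloid, 2 of 6 endothelial and 1 of 5 B lineage markers. Higher were 1 mesenchymal, 2 myeloid and 1 B lineage marker, and the summed myeloid and B lineage levels were higher in all AireKO libraries. The part of such cells in these falls was not tested. In bulk libraries, fewer cells of a type and less RNA per cell cannot be told apart.

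**Figure D3:**
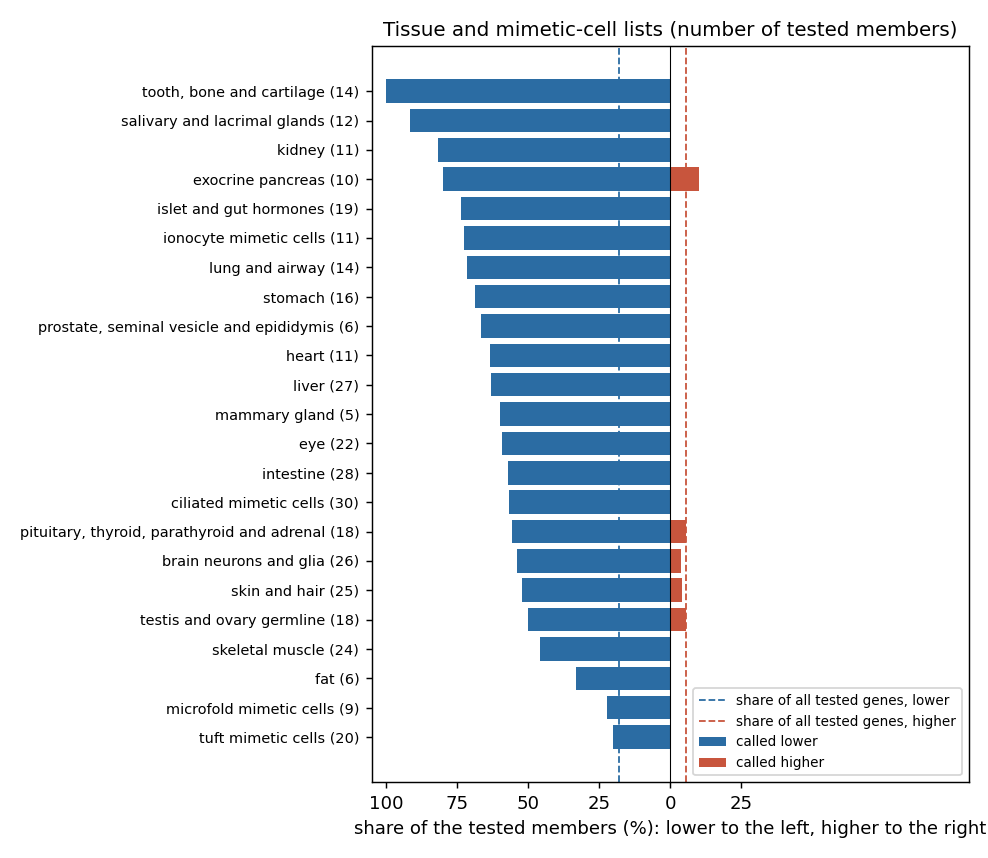
The share of tested members called lower (blue, to the left) and called higher (red, to the right) in each of the 23 lists, with the number of tested members in brackets. Dashed lines give the shares of all tested genes, 17.9% lower and 5.48% higher, and all 23 lists exceed the first, from 20% in the tuft list to 100.0% in tooth, bone and cartilage. The lists and all tested genes were not matched for level.

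In the stomach list 11 of 16 tested genes fell and none rose (median −3.29). Muc6, a mucin of gastric glands, had 59.9 to 139 CPM in WT and 3.06, 2.45, 6.11 and 4.16 in AireKO (log2 fold change −4.39, SE 0.27, edgeR adjusted p 6.97e-13). Pgc, the zymogen progastricsin, fell from 52.4 to 107 CPM to between 0.408 and 2.04 (−6.18, SE 0.40, edgeR adjusted p 1.17e-12). Muc5ac, the mucin of the gastric surface, fell from 246 to 422 CPM to between 1.36 and 4.38 (−6.86, SE 0.84, edgeR adjusted p 9.75e-08). Gkn1, a gastrokine of the surface mucosa, and Kcne2, a potassium channel subunit of acid-secreting cells, had 5.72 to 9.70 and 5.12 to 12.1 CPM in WT and 0 and 1 count in all of AireKO. In the intestine list 16 of 28 fell and none rose (median −1.72), among them Alpi (intestinal alkaline phosphatase), Zg16 (a goblet cell lectin), Reg4, Fabp2 (a fatty acid carrier of enterocytes) and Cdhr2 (a brush border cadherin). Alpi went from 21.4 to 26.2 CPM in WT to between 0 and 1.31 in AireKO. The summed level of this list overlapped between groups (3932 to 5391 against 4119 to 5061 CPM), and Fcgbp, a mucus protein that was not called, held 60.5% of it in WT and 81.5% in AireKO.

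Most genes of digestive enzymes and gut hormones fell. In the exocrine pancreas list 8 of 10 tested genes fell (median −2.81). Pnlip, pancreatic lipase, had 3.01 to 7.14 CPM in WT and Pnliprp1, a related lipase, 3.12 to 6.78, and both had 0 counts in AireKO. Cel, the bile salt lipase, fell from 12.1 to 23.6 CPM to between 2.38 and 3.74 (−2.50, SE 0.32, edgeR adjusted p 2.30e-07). Ctrb1, chymotrypsinogen, had 29.9 to 62.8 CPM in WT and 0, 0, 0.679 and 11.6 in AireKO, so that replicate 4 carried almost all of its AireKO level. Cela3b, a pancreatic elastase, fell too, with overlapping values (0 to 8.79 CPM in WT, at most 0.416 in AireKO, edgeR adjusted p 5.74e-05). The exception was Ctrl, a chymotrypsin-like protease, which rose from 4.22 to 11.5 CPM to 17.1, 16.7, 19.7 and 15.4 (1.11, SE 0.24, edgeR adjusted p 0.000266), a call lost with library-size scaling and with 5-week libraries only.

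Of 19 tested islet and gut hormone genes 14 fell and none rose (median −2.81). Nts (neurotensin) had 40.9 to 62.1 CPM in WT and 1 count in AireKO, Gip (an incretin of gut) 13.5 to 24.6 CPM in WT and 0.408 to 1.02 in AireKO, Pyy (peptide YY) 17.5 to 28.6 CPM and 2 counts, and Cck (cholecystokinin) 3.62 to 18.2 CPM and 1 count. Ins2, a gene of insulin and a target of autoimmune diabetes, had 4.36 to 15.8 CPM in WT and 0 in all 4 AireKO libraries, at least 36.0-fold lower (edgeR adjusted p 8.52e-08). In the list of pituitary, thyroid, parathyroid and adrenal genes 10 of 18 fell (median −3.23, or −3.15 with genes at 0 set to their bound). They included Pomc, the precursor of corticotropin, which fell from 44.9 to 70.7 CPM to 7.44, 5.30, 2.04 and 2.50 (−3.76, SE 0.28, edgeR adjusted p 1.54e-11). The steroid-synthesis genes Cyp11a1 and Cyp11b1 had 11.2 to 36.9 and 2.71 to 11.3 CPM in WT, against at most 0.832 and 0 in AireKO. Of thyroid genes, the factor Pax8 fell (edgeR adjusted p 3.03e-07), whereas thyroglobulin, Tg, was not called, at 40.6 to 80.5 CPM in WT and 45.1, 59.9, 32.3 and 36.2 in AireKO. Gh, growth hormone, rose from 3.01 to 13.2 CPM to 27.6, 23.2, 14.6 and 15.0 (1.06, SE 0.28, edgeR adjusted p 0.00213), close to the 2-fold limit and lost with library-size scaling, with 10 counts required in every library of a group, and without WT replicate 2 or 7 or AireKO replicate 1 or 2.

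Genes of liver, kidney and lung followed. In liver 17 of 27 tested genes fell (median −2.64), with 6 of the 27 at 0 in all AireKO libraries. Cps1, the first enzyme of the urea cycle, went from 32.7, 52.7 and 66.8 CPM to 0, 1.63, 2.72 and 0.416 (−5.32, SE 0.41, edgeR adjusted p 2.33e-11). Alb (albumin) and Fgb (the beta chain of fibrinogen) had 15.1 to 28.3 and 16.5 to 38.0 CPM in WT and 0 in AireKO, at least 66.7-fold and 85.6-fold lower. Itih3, a plasma inhibitor, fell from 18.7 to 36.9 CPM to at most 1.31. In kidney 9 of 11 tested genes fell (median −3.63), such as the water channel Aqp1 (28.9 to 66.9 CPM against 0.875 to 2.04) and the sodium chloride transporter Slc12a3 (68.1 to 121 against 2.19 to 7.81). The endocytic receptor Lrp2 and the protease Ren1 (renin) fell likewise (edgeR adjusted p 1.16e-09 and 1.58e-08). In lung and airway 10 of 14 fell (median −2.33), among them the airway secretions Bpifa1 (52.5 to 125 CPM against 10.5, 8.97, 5.43 and 2.91), Bpifb1 and Scgb1a1, the surfactant protein Sftpb and the lysosomal protein Lamp3. Abca3, a lipid transporter of lamellar bodies, was not called and had higher values (122 to 186 CPM in WT, 304, 309, 207 and 203 in AireKO).

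Most tested genes of glandular secretions fell, but the most abundant did not. In salivary and lacrimal glands 11 of 12 tested genes fell (median −3.65). Dmbt1, a mucosal scavenger receptor, had 62.3 to 112 CPM in WT and 3.06, 3.67, 0.679 and 17.9 in AireKO (−3.82, SE 0.47, edgeR adjusted p 1.14e-07), and Muc19, a salivary mucin, had 20.4 to 44.3 CPM and 1 count. Dcpp1, Dcpp3 and Lcn11, small secreted proteins, were at 1, 0 and 2 counts over AireKO. The Dcpp genes are near-identical copies that can split reads, so their separate values are uncertain. The remaining member, the peroxidase Lpo, had 156 to 201 CPM in WT and 189, 168, 179 and 187 in AireKO, and held 46.8% of the summed level in WT and 87.7% in AireKO. In mammary gland, the caseins Csn1s2a (24.3 to 49.9 CPM against 3 counts) and Csn1s1 (12.1 to 28.1 CPM against 0 to 1.25) and the whey protein Wap fell, whereas Csn2 (beta-casein), the most abundant member, was not called at 309.4 to 568.5 CPM in WT and 432, 471, 454 and 524 in AireKO, nor was Csn3. Csn2 held 85.1% of the summed level in WT and 97.9% in AireKO, and this sum overlapped (371 to 678 against 440 to 539 CPM). Of prostate, seminal vesicle and epididymis genes 4 of 6 fell, which were Lcn8, Sbp, Adam7 and Tgm4. Sbp, a spermine-binding protein of prostate, had 4.51 to 11.5 CPM in WT and 0 in AireKO.

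Germline genes did not move one way. Of 18 tested, 9 fell, among them Zp1 (an egg coat protein, 5.42 to 11.6 CPM against 0.408 to 1.70), Piwil1 and Tdrd9 (of the piRNA pathway) and Nlrp5 (an oocyte protein). Zp2, a second egg coat protein, rose from 69.7, 104 and 109 CPM in the lowest, median and highest WT library to 313, 296, 346 and 344 (1.77, SE 0.17, edgeR adjusted p 1.38e-09). It held 28.9% of the summed level of the list in WT and 66.7% in AireKO, and this sum was higher in all AireKO libraries.

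In eye 13 of 22 tested genes fell and none rose (median −1.25). Aipl1, a chaperone of photoreceptors, had 21.97 to 33.06 CPM in WT and 0 in AireKO, at least 90.3-fold lower (edgeR adjusted p 2.90e-12). The lens genes Cryaa, Crybb2, Crygs and Mip stood at 3, 0, 3 and 2 counts over the 4 AireKO libraries, against 16.2 to 27.6 CPM for Cryaa and 10.0 to 18.4 for Mip in WT. In brain 14 of 26 fell (median −1.38). Slc17a6, a vesicular glutamate transporter, Th, the tyrosine hydroxylase of dopamine synthesis, and Nefl, a neurofilament, had 11.7 to 23.2, 17.46 to 39.99 and 9.35 to 20.8 CPM in WT and 1, 1 and 0 counts in AireKO. Grin2a, a glutamate receptor subunit, fell from 5.61 to 13.2 CPM to at most 0.679. Syn2, a synapsin of synaptic vesicles, went the other way, from 76.5, 95.2 and 112 CPM to 429, 431, 382 and 401 (2.13, SE 0.10, edgeR adjusted p 5.49e-15). Syt1, a vesicle calcium sensor, was not called (520 to 645 against 661, 670, 760 and 761 CPM). The summed level of the brain list was higher in all AireKO libraries.

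Muscle fell in part. In skeletal muscle 11 of 24 tested genes fell (median −0.85), led by Myh3, the embryonic myosin heavy chain, from 69.7, 104 and 127 CPM to 1.31, 0.816, 1.70 and 0 (−6.61, SE 0.32, edgeR adjusted p 8.30e-15). Ryr1, the calcium release channel, Chrna1, an acetylcholine receptor subunit and target in myasthenia gravis, and Tnni1, slow troponin I, fell from 19.3 to 45.2, 17.6 to 27.4 and 14.5 to 29.4 CPM to 1.31 to 2.38, 4.81 to 6.79 and 4.49 to 8.73. The giant protein gene Ttn, at 2137 to 3023 CPM in WT, was not called, with 1297 to 1888 in AireKO. In heart 7 of 11 fell (median −1.82), such as Ryr2 (46.0 to 90.4 CPM against 20.6, 12.6, 11.9 and 12.1), Mybpc3, Myl3, Myh6 and Nppb.

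Every tested gene of tooth, bone and cartilage fell, 14 of 14 (median −4.02, or −3.95 with 3 genes at 0 set to their bound). Acan, the large proteoglycan of cartilage, had 44.0, 53.5 and 71.7 CPM in WT and 0, 0, 0 and 1.25 in AireKO (edgeR adjusted p 3.38e-12). Spp1 (osteopontin) fell from 75.5 to 108 CPM to 2.19, 2.45, 11.9 and 2.08 (−4.22, SE 0.33, edgeR adjusted p 3.92e-11), Alpl, a phosphatase of mineralising tissue, from 41.6 to 77.2 CPM to between 6.56 and 10.5, and Col2a1, the collagen of cartilage, from 22.4 to 71.0 CPM to between 3.06 and 7. Amelx, amelogenin of enamel, had 14.3 to 30.1 CPM and 0 in AireKO, at least 73.9-fold lower. Mesenchymal markers moved alongside, with 5 of 8 tested lower, 1 higher and summed levels of 221 to 395 CPM in WT and 195 to 215 in AireKO. Col1a1, the main collagen of bone and of fibroblasts, fell from 51.1, 113 and 184 CPM to at most 1.31 (−6.97, SE 0.61, edgeR adjusted p 2.79e-10). Pdgfra, Col3a1, Col1a2 and Postn fell with it, Pdgfrb, a receptor of pericytes and fibroblasts, was not called (79.5 to 130 CPM against 95.8 to 125), and Dcn, which followed the library kind, rose. The part of mesenchymal cells in the skeletal result was not tested. Sparc, a matrix protein of bone, had the smallest p of all genes and fell from 68.0, 79.3 and 92.7 CPM to 2.19, 2.04, 3.73 and 1.66 (−4.99, SE 0.19, edgeR adjusted p 6.56e-17).

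In skin and hair 13 of 25 tested genes fell (median −1.10), among them the desquamation proteases Klk5 (16.3 to 28.7 CPM against 0 to 3.06) and Klk7 (29.5 to 52.8 against 4.08 to 12.1), the keratin Krt2 and Casp14, a protease of the cornified layer. Calm4, a calmodulin-like gene of the epidermis, rose just past 2-fold (1.01, SE 0.27, edgeR adjusted p 0.00266), with overlapping groups, and lost the call in many settings, RLE, library-size and DESeq2 scaling among them. In fat only Adipoq (adiponectin) and Cidea of 6 tested genes fell (edgeR adjusted p 1.47e-05 and 0.000112). Adipoq overlapped between groups, at 3.12 to 9.70 CPM in WT and 0.340 to 3.50 in AireKO. Fabp4 was not called (log2 fold change 0.42). It held 79.6% of the summed level of the fat list in WT and 86.9% in AireKO, and this sum overlapped.

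**Figure D4:**
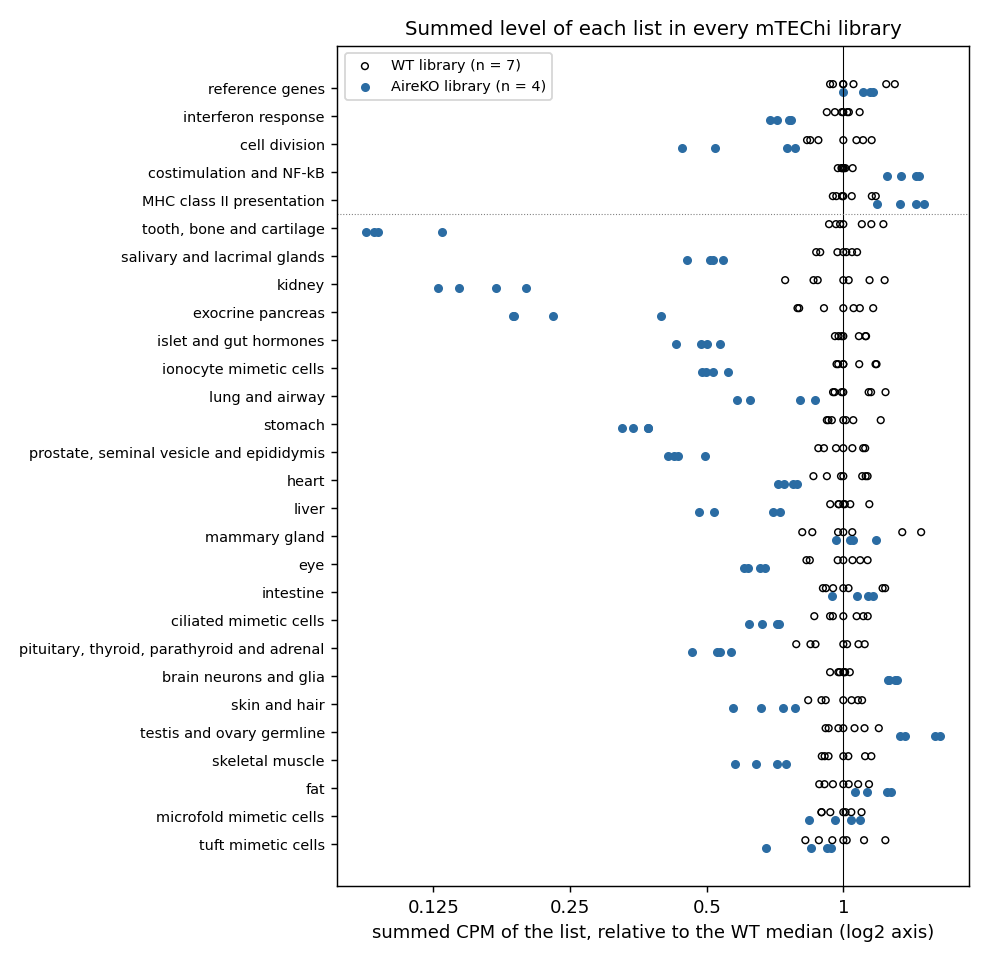
Summed CPM of each list in every mTEChi library, relative to the WT median (log2 axis), with WT libraries as open circles (n = 7) and AireKO libraries as filled circles (n = 4). Tooth, bone and cartilage, kidney and exocrine pancreas lie furthest below WT, brain, germline, MHC class II and costimulation lie above, and the reference genes overlap.

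Programmes of mimetic cells fell unequally. Of ciliated-cell genes 17 of 30 fell and none rose (median −1.58), of ionocyte genes 8 of 11 (median −2.97), of tuft genes 4 of 20 (median −0.34) and of microfold genes 2 of 9 (median −0.73), the shares of the last pair being close to the 17.9% of all genes. Trp73, a p53 family factor of multiciliated cells, fell from 12.5, 22.6 and 40.7 CPM to 0.438, 0.408, 1.70 and 0 (−5.08, SE 0.39, edgeR adjusted p 2.90e-11). The axonemal dynein Dnah5 fell from 92.5 to 125 CPM to between 12.2 and 30.2, and Ccno, Tekt1 and Cfap44 fell too. Foxj1, the leading factor of motile cilia, was not called, at 12.5 to 78.2 CPM in WT and 60.4, 44.0, 44.5 and 47.8 in AireKO (log2 fold change 0.00, SE 0.25, edgeR adjusted p 0.99). In ionocytes, cells rich in proton pumps, the defining factor Foxi1 fell from 14.7, 18.1 and 27.5 CPM to 0.438, 0.408, 0.340 and 0.416 (−5.43, SE 0.56, edgeR adjusted p 5.49e-09), together with Foxi2 and the pump subunits Atp6v1b1 and Atp6v0d2. Among the tuft genes that fell were the kinase Dclk1, Chat, which makes acetylcholine, and the taste G protein Gnat3, with Dclk1 at 65.0 to 94.3 CPM in WT and 28.9, 18.8, 30.6 and 19.5 in AireKO. Their factor Pou2f3 was not called (33.2 to 61.4 CPM against 35.9, 19.6, 53.0 and 48.2). Of microfold genes Gp2, a receptor for bacteria, fell from 65.8 to 146 CPM to 5.69, 15.9, 27.2 and 27.4 (−2.30, SE 0.29, edgeR adjusted p 1.32e-07), and the chemokine Ccl9 fell as well.

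Among 30 tested transcription factors of these and other lineages 9 fell (30.0%, against 17.9% of all tested genes) and 1 rose (3.33%, against 5.48%). Besides Trp73, Foxi1 and Foxi2, the intestinal factor Cdx2 had 3.01 to 8.93 CPM in WT and 0 in AireKO (edgeR adjusted p 2.17e-07), and Hnf4a, of liver and gut, fell from 8.41 to 19.6 CPM to 1.75, 4.89, 2.04 and 4.16. Foxa2, Spdef and Neurod1 fell also. The related factor Cdx1 was not called, at 69.2 to 131 CPM in WT and 245, 214, 167 and 194 in AireKO (0.93, SE 0.14, edgeR adjusted p 1.70e-06). Nkx6-2 rose from 9.35 to 22.9 CPM to 41.1, 33.9, 37.4 and 29.5, a call lost with library-size scaling and with age as a term. Fezf2, which drives another set of tissue genes in mTECs, and Foxn1, the master factor of thymic epithelium, were not called, with log2 fold changes of 0.20 (SE 0.11, edgeR adjusted p 0.14) and 0.63 (SE 0.18, edgeR adjusted p 0.00329). Of 23 genes for Aire and its partner proteins 3 fell (13.0%, against 17.9% of all tested genes) and none rose. These were Aire itself, Xrcc5 (a DNA end-binding protein) and Top2a (a topoisomerase). The coactivator Crebbp was not called, at 424 to 469 CPM in WT and 707 to 732 in AireKO. The call of Xrcc5 was lost with 5-week libraries only.

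Many gene families of secretion and barrier had shares of falls above the 17.9% of all tested genes. Of tested genes, 32 of 45 keratins, 20 of 24 kallikreins, 9 of 12 mucins, 10 of 11 BPI fold proteins, 6 of 6 lipocalins, 4 of 5 Reg lectins and 26 of 45 collagens were called lower, and none of these 7 families had a member called higher. Defensins (3 of 5 lower, 1 higher) and cystatins (3 of 11 lower, 1 higher, median −0.03) were less uniform. Of families of transport and detoxification, 21 of 46 cytochromes P450 (3 higher), 6 of 8 UDP-glucuronosyltransferases (none higher), 15 of 32 serpins (1 higher) and 83 of 300 solute carriers (27.7%, with 15 or 5.0% higher, against 5.48% of all tested genes) were lower. Among receptors and channels, 14 of 23 glutamate receptors, 9 of 13 GABA and glycine receptors, 26 of 68 potassium channels and 7 of 7 vomeronasal receptors fell, against 1, 1, 4 and 0 that rose. Of voltage-gated sodium and calcium channels 13 of 30 fell and 4 rose. Olfactory receptors split, with 13 of 35 tested lower and 9 higher. Only 7 of 324 annotated vomeronasal receptors, 35 of 1134 olfactory receptors and 6 of 10 lipocalins were tested. A gene near 0 in mTEChi AireKO could pass the filter only through other libraries, so 7 of 7 does not describe the vomeronasal family. The parts of this filter and of level in the family shares were not tested. By contrast 0 of 39 proteasome subunits and 0 of 18 replication-dependent histones were called, and of 85 genes named Rpl or Rps 2 were lower and 2 higher, of which Rps6ka6 and Rps6ka2 encode kinases. Members of several of these families share sequence, so reads can be split or lost between copies, and counting took no account of strand, which leaves overlapping and antisense genes uncertain.

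Some of the genes that fell lay side by side in the genome. There were 122 runs of at least 4 neighbouring tested genes that were all called lower, with 628 of the 3460 genes, and 10 runs of genes called higher, with 48 genes. Genes of a family often lie together, and whether runs were more frequent than the share of genes called lower would give was not tested. The longest run was in the kallikrein cluster on chromosome 7 (GRCm38, 43690418 to 43980376), secreted serine proteases of skin and glands. All 17 tested genes from Klk14 to Klk1b9 fell there, 15 of them protein coding, with fitted log2 fold changes between −4.79 and −1.20. Klk7 and Klk5 were described above, and Klk6, a protease of nervous tissue and skin, had means of 37.5 CPM in WT and 4.08 in AireKO (−3.12, SE 0.46, edgeR adjusted p 2.01e-06). The next 3 genes, Klk1b11, Klk1b26 and Klk1b27, were not called, with log2 fold changes of −0.09, −0.07 and 0.02 (edgeR adjusted p 0.81, 0.77 and 0.98), and Klk1b22 and Klk1b16 beyond them fell again. The genes upstream, from Zfp719 to Ctu1, were not called.

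**Figure D5:**
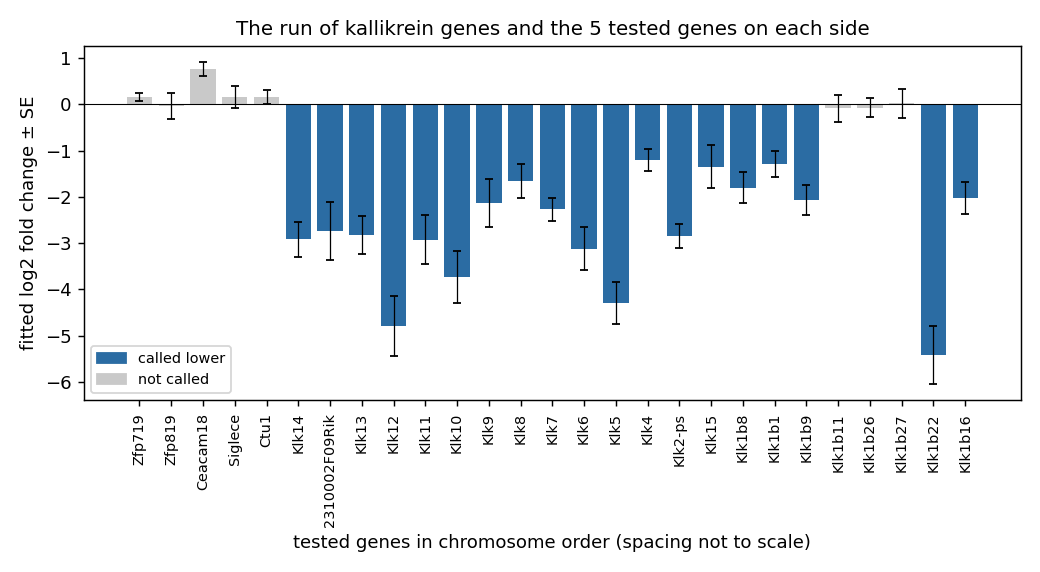
Fitted log2 fold changes of AireKO over WT (bars) with SE (whiskers) for the 17 genes of the run and the 5 tested genes on each side of it, in chromosome order and not to scale. The 17 bars from Klk14 to Klk1b9 lie between −4.79 and −1.20, while Klk1b11, Klk1b26 and Klk1b27 lie near 0. The 5 genes after the run are kallikreins too, and Klk1b4, Klk1b5 and Klk1, called lower, lie beyond the plot.

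Other long runs held 13 genes of pregnancy-specific glycoproteins and their neighbours (chromosome 7, 17074040 to 18821607), 10 BPI fold genes (chromosome 2, 153875045 to 154320646), 9 type I keratins from Krt23 to Krt9 (chromosome 11, 99477974 to 100193246) and 8 type II keratins from Krt71 to Krt4 (chromosome 15, 101733949 to 101924735). A run of 9 on chromosome 3 joined the calprotectin genes S100a8 and S100a9 to Lor and Sprr2a3 of the cornified envelope. A run of 8 on chromosome 14 held mast cell proteases and granzymes, from Cma1 to Gzmb, with the proton pump gene Atp12a.

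Genes of antigen presentation did not fall. Of 13 tested MHC class II genes none fell, and H2-Oa and H2-Ob, which form the peptide-loading modulator H2-O, rose. H2-Oa went from 40.4, 57.2 and 87.8 CPM to 182, 158, 143 and 155 (1.41, SE 0.18, edgeR adjusted p 1.78e-07), and H2-Ob from 116, 129 and 147 CPM to 255, 274, 276 and 291 (1.08, SE 0.10, edgeR adjusted p 1.26e-09), the second lost with library-size scaling and with 5-week libraries only. H2-Aa, a chain of the protein used for the sort, was not called (548 to 815 CPM against 719, 700, 586 and 684). Ciita, the transactivator of MHC class II, was not called at the 2-fold limit and had no overlap, with 431 to 638 CPM in WT and 1146, 1070, 783 and 835 in AireKO (0.82, SE 0.18, edgeR adjusted p 0.000279). The summed level of the list was 3770 to 4687 CPM in WT and 5979, 5746, 4716 and 5312 in AireKO, and replicate 3 lay just above the highest WT library.

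Of 17 genes of costimulation and NF-kB signalling none was called lower, against 17.9% of all tested genes. Only 1 was called higher (5.88%, close to the 5.48% of all tested genes), which was Map3k14, the kinase NIK of the noncanonical pathway. It rose from 118, 142 and 173 CPM to 345, 293, 271 and 267 (1.03, SE 0.10, edgeR adjusted p 3.49e-09), which lay at the 2-fold limit and lost the call in 7 settings, library-size scaling among them. Icosl, a costimulatory ligand, had 365 to 412 CPM in WT and 864, 813, 598 and 679 in AireKO, and Relb, the subunit downstream of NIK, 177 to 255 against 454, 410, 313 and 349. Both missed the 2-fold limit (0.94 and 0.80). Cd80, the ligand of CD28 and CTLA-4 on mature mTECs, had lower values, 186 to 218 CPM against 116, 139, 138 and 155 (−0.57, SE 0.16, edgeR adjusted p 0.00316), as had the NF-kB inhibitor Tnfaip3 (−0.74, SE 0.08, edgeR adjusted p 1.16e-08). Neither was called. The summed level of the list was 3989 to 4301 CPM in WT and 6029, 5935, 5132 and 5487 in AireKO.

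Chemokines that attract T cells and dendritic cells fell in part. Of 12 tested, 4 were lower. Xcl1, which recruits XCR1+ dendritic cells, had 1.81, 6.92 and 15.3 CPM in WT and 0.438, 0, 0 and 0 in AireKO (edgeR adjusted p 4.34e-07). Ccl22 fell from 79.0, 125 and 183 CPM to 24.9, 64.0, 31.2 and 32.0 (−1.70, SE 0.37, edgeR adjusted p 0.000275), and Ccl17 and Cxcl12 fell likewise. Ccl19, with 0 counts in WT and 6.12 to 7.07 CPM in AireKO, followed the library kind. Of 14 genes of basal and immature mTECs, Plet1, Krt15 and Sox4 fell and Sox9 rose at the 2-fold limit, the latter lost with RLE and library-size scaling and DESeq2. These shares, 21.4% lower and 7.14% higher, were close to the 17.9% and 5.48% of all tested genes, and the list median was 0.12. Of 13 genes of cortical epithelium 2 fell (15.4%, against 17.9% of all tested genes) and none rose (median −0.07). Enpep, a peptidase that carries the epitope gated as Ly51, fell from 36.2 to 61.5 CPM to 3.50, 1.22, 5.09 and 1.66, and the protease Ctsl from 66.3 to 91.6 to 31.1, 19.6, 21.1 and 35.4. Ly75, an endocytic receptor, and Tbata were not called but had higher values without overlap (log2 fold changes 0.77 and 0.65), and the summed level of the cortical list was 1248 to 1363 CPM in WT and 1739, 1554, 1460 and 1506 in AireKO.

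Genes of the interferon response, which limits viruses, fell or were not called. Of 24 tested, 12 were lower and none higher (median −0.99), and the summed level was 1859 to 2196 CPM in WT and 1395, 1441, 1536 and 1552 in AireKO. Rsad2 (viperin), an antiviral enzyme, fell from 42.4, 58.5 and 73.5 CPM to 0.438, 1.22, 6.11 and 1.25 (−4.50, SE 0.31, edgeR adjusted p 4.23e-12). Ifit2, which binds viral RNA, fell from 32.0, 53.0 and 57.8 CPM to 3.94, 0, 4.41 and 2.50 (−4.10, SE 0.29, edgeR adjusted p 5.08e-12), and the GTPases Gbp2 and Gbp3 fell by 1.95 and 2.16 on the log2 scale. The sensor Ddx58 (RIG-I) fell from 56.3 to 66.1 CPM to between 23.2 and 29.8. Their activators Stat2 and Irf9 were not called.

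Of 30 cell division genes 8 fell (26.7%, against 17.9% of all tested genes) and none rose. Mki67 had 170, 254 and 324 CPM in WT and 110, 130, 70.0 and 83.2 in AireKO (−1.36, SE 0.36, edgeR adjusted p 0.00236), and Kif11, Cenpe, Cenpa, Cenpf, Bub1, Top2a and Ccnb1 fell too. The summed level was 1156 to 1604 CPM in WT, 1087 and 1042 in AireKO at 5 weeks and 612 and 727 at 6 weeks. These calls moved with age: Mki67 and Cenpa were lost with 5-week libraries only, Bub1 as well with 5-week males only, and Mki67, Bub1 and Cenpe with age as a term. Cenpa was also lost with male libraries only and without AireKO replicate 3 or 4. With a term for the library kind, Mki67, Bub1, Cenpe and Kif11 turned higher. That term rests on mTEClo AireKO libraries, in which kind and age (5 or 6 weeks) cannot be told apart. Among 18 immediate early and stress genes only Trib3 was called, higher (1.33, SE 0.24, edgeR adjusted p 4.09e-05), a call lost with 5-week libraries only and with age as a term, and 0 of 14 reference genes were called.

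Markers of cells that the gate should remove were read too, and some of them moved. Of 8 tested T lineage markers 7 were lower, with summed levels of 95.9 to 130 CPM in WT and 46.5 to 59.1 in AireKO. Ptprc, the gene of CD45, had 9.70 to 36.2 CPM in WT and 5.41 to 6.93 in AireKO, and Cd4 was not called (22.96 to 29.5 against 24.1 to 33.7). Of 9 tested myeloid and dendritic markers 4 were lower and 2 higher (309 to 383 CPM summed in WT, 409 to 463 in AireKO). Lyz2 held 54.8% of the summed level of the tested myeloid markers in WT and 67.7% in AireKO. The macrophage receptor Adgre1 fell from 31.9 to 48.0 CPM to at most 2.04, while Fcer1g rose from 9.63 to 18.4 CPM to between 40.3 and 48.1 and Cd68 from 15.1 to 30.2 to between 38.3 and 57.4. Of 5 B lineage markers Ms4a1 was lower and Cd79b higher (95.2 to 126 CPM summed in WT, 167 to 201 in AireKO). The calls of Cd79b and Cd68 lay at the 2-fold limit and were lost in many settings, library-size scaling among them, and that of Ms4a1 with 5-week libraries only and with age as a term. Of 6 endothelial markers Plvap and Cdh5 were lower (171 to 267 against 218 to 291 CPM summed). Vwf held 63.9% of the summed level of the tested endothelial markers in WT and 78.6% in AireKO. The 4 globin genes of the erythroid list were at 0 in AireKO and untested. The part of such cells in the changes of the tissue lists was not tested.

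The genes that rose most were few and mixed in function. They were taken from 474 eligible genes by the same rule as the falls. Ptchd4, a relative of the hedgehog receptor, rose from 12.1, 18.2 and 18.8 CPM to 107, 130, 190 and 150 (3.03, SE 0.15, edgeR adjusted p 8.60e-15). Ctla4, an inhibitory receptor of regulatory T cells, rose from 10.0, 15.7 and 20.6 CPM to 94.1, 110, 178 and 148 (3.10, SE 0.21, edgeR adjusted p 3.69e-12). Which cells carried this rise was not tested. Il12rb1, a receptor chain for the cytokines IL-12 and IL-23, rose from 10.4 to 23.5 CPM to 90.6, 101, 90.3 and 92.3 (2.40, SE 0.18, edgeR adjusted p 2.26e-11). These 3 genes lay well apart from WT in every library. Nfam1, an immunoreceptor-signalling adaptor of leukocytes, rose from 4.21 to 9.40 CPM to between 54.1 and 76.7, and Acot12, a liver thioesterase, from 4.85 to 10.0 CPM to between 53.4 and 75.3. Rgr, an opsin of retinal pigment epithelium, Fam19a1, a secreted neural protein, St6galnac3, a sialyltransferase, Igll1, of the surrogate light chain of B cell precursors, Neu2, a sialidase, and Olfr1140, an olfactory receptor, rose as well. AY761185 had 0 to 1.08 CPM in WT and 18.8, 13.1, 16.6 and 16.2 in AireKO (edgeR adjusted p 2.90e-08). Plcd3, a phospholipase, had 92.3 and 79.5 CPM in AireKO replicates 1 and 2 and 14.3 and 15.4 in replicates 3 and 4, against 1.87 to 10.7 in WT, so the size of its rise depended on the pair. Mmrn2, an endothelial matrix protein, spread in the same order, at 102, 75.8, 52.6 and 37.4 CPM against 8.43 to 14.4.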

How the data were processed

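RNA was measured by RamDA-type full-length sequencing of bulk-sorted adult mTEChi and mTEClo. The authors deposited raw read counts per Ensembl gene. By the study's methods and the submitters' processing notes, they trimmed reads with fastp 0.20.0, mapped them to mm10 with STAR 2.7.3a, filtered with SAMtools 1.9, removed duplicates with Picard 2.21.1 and counted with HTSeq 0.11.2 without strand. Duplicate removal by position can lower the counts of highly expressed genes, and counts of different genes are not per length. The normalized tables and the neonatal table of the authors were not used here.

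Symbols and positions came from GENCODE vM21 (GRCm38). The Ensembl release is not given in the sources used here. Mitochondrially encoded genes were dropped before library sizes. In R 4.3.3 with edgeR 4.0.16, genes passed filterByExpr, libraries were scaled by TMM, and glmQLFit was run over the 4 adult groups (23 libraries), with the mTEChi contrast tested 2-sided by glmQLFTest and adjusted by Benjamini-Hochberg. Common dispersion was 0.0203, a biological coefficient of variation of 14.2%. Errors are SD over libraries or SE of log2 fold changes, the prior count was 0.125, and ratios of genes with 1 to 3 counts have exact Poisson intervals. The script was tested on simulated data. Totals of counts per library limit precision most for genes under 3 CPM.

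Named are Aire, up to 14 largest falls and rises (called, protein coding with a gene symbol other than Gm or Rik, no overlap, at least 10 CPM in the higher group, not following the library kind), and up to 5 list members by smallest adjusted p. Genes outside these rules were picked with their values in view. A few genes that these rules name are not reported here. Genes that followed the library kind differed at least 2-fold, without overlap, between the 6 adult libraries without mitochondrial counts and the other 17. The lists, members and tests were chosen with earlier results of these data known. Replicate numbers did not pair libraries (correlations of deviations −0.194 to −0.0548). Alternatives covered scaling, filters, sex, age, tool, threshold, library kind and leaving out libraries. Promoter windows came from RefSeq on GRCm38.p6.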

Additional observations from a re-analysis of the deposited data

Results flagged for a closer look

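Single libraries that stood apart from the rest of their group, by the gap to the nearest value relative to the range, were found in 25 of 484 groups of values (5.17%), where chance alone gives about 1 in 20. Only groups with a mean count above 3 were examined, and 8 of the 25 were AireKO and 17 WT.

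In AireKO the highest library stood apart for Casp14 (3.50 CPM, replicate 1), Postn (2.19, replicate 1), Ryr2 (20.6, replicate 1), Rsad2 (6.11, replicate 3), Spp1 (11.9, replicate 3) and Ctrb1 (11.6, replicate 4), and for the summed level of tooth, bone and cartilage genes (52.0 CPM, replicate 3). The lowest stood apart for Tgm4 (0.437 CPM, replicate 1). These values lay below every WT library.

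In WT the highest library stood apart for Ccl20 (102 CPM) and Tek (32.4) in replicate 1, for Dcn (40.4), Ly75 (236) and Tnfaip3 (122.9) in replicate 2, for Myh6 (12.5) and Xcl1 (15.4) in replicate 3, and for Igll1 (5.76) in replicate 4. In replicate 6 these were H2-DMa (120 CPM), Lck (25.9) and Myh8 (59.5), and in replicate 7 Krt2 (41.7), Pdgfra (13.3) and Sbp (11.5). The lowest stood apart for Adipoq (3.12 CPM, replicate 1), Crebbp (424, replicate 2) and Ptchd4 (12.1, replicate 2).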

How the results depend on the processing

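The totals of 4517 genes called, 3460 lower and 1057 higher, stayed within 1.5 times under RLE scaling, library size alone, DESeq2, only the mTEChi groups, males, 5-week libraries, an age term and summed library sets. Without a filter on low counts 8045 genes were called, 6565 of them lower, and with 10 counts in every library of a group 2706, of them 1914 lower. Without a minimum change 10587 were called, 5605 lower and 4982 higher. At 4-fold or more 2054 were called, 1940 lower and 114 higher. Leaving out 1 library at a time gave 4285 to 4763 calls, 3243 to 3644 lower and 991 to 1119 higher. Same-numbered libraries did not deviate together (correlations −0.194, −0.0853, −0.0901 and −0.0548), none was closest to its own number, and a replicate block gave 4585 calls, 3409 lower and 1176 higher.

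A term for the library kind gave 4200 calls, 2679 lower and 1521 higher, and kept 54.2% of the genes called lower and 48.3% of those called higher. Of 186 named genes that were called, 107 kept the call, 69 lost it and 10 turned their direction. The log2 fold changes became 0.13 for Aire, 2.29 for Bub1, 1.38 for Cenpe, −0.59 for Dcn, 1.20 for Kif11, 0.10 for Med10, 1.51 for Mki67, 0.31 for Ms4a1, 0.67 for Sox4 and 0.086 for Wap. Lpo and Ttn, which were not called, became 0.49 and 0.58. The term for the library kind rests on 2 mTEClo AireKO libraries of each kind. Those with mitochondrial counts were aged 5 weeks and those without 6 weeks, so kind and age cannot be told apart in it. The cause of these shifts was not tested. Of the tissue and mimetic-cell genes, 227 were lower as reported, 156 with 10 counts required, 180 at 4-fold and 218 to 228 without 1 library. Depth limits genes near 1 CPM, where a library holds only a few counts. The fits on summed library sets and on 5-week males were chosen after seeing the data.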

Other observations

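Among genes that lay next to each other and were all called higher, 10 runs were found. The olfactory receptors Olfr1136, Olfr1137, Olfr1138 and Olfr1140 on chromosome 2 (GRCm38, 87692881 to 87747581) rose with log2 fold changes of 2.16 to 3.30. Tnfrsf4 (OX40) and Tnfrsf18 (GITR), receptors of activated and regulatory T cells, lay in a run on chromosome 4 (156013843 to 156031643) with changes of 1.26 to 1.40. Fgf10, a growth factor of mesenchyme, closed a run of 5 on chromosome 13 (118555360 to 118792115) with changes of 2.344 to 4.796. Counting took no account of strand, so overlapping transcripts in such runs can share reads. These runs were chosen after their values were seen.

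Falls were spread over the genome, with 14.9% to 21.9% of tested genes called lower on each chromosome. Of 338 tested zinc finger genes 29 were lower (8.58%, against 17.9% of all tested genes) and 6 higher (1.78%, against 5.48%), a difference that was not tested.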
